A study of Mus musculus with 12 samples.

Results

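Leukocytes hold on to each other, to vessel walls, and to matrix through integrins, which are pairs of 1 α and 1 β subunit, and through the immunoglobulin-type and proteoglycan-type molecules that integrins or matrix sugars bind. The data below concern 9 such genes of 43626 in the count files: Itgal, Itgam, Itgax, Itgb2, Itga4, Itga5, Icam1, Vcam1, and Cd44. They were chosen by name, as the leukocyte integrin subunits, their cell-surface partners, and the hyaluronan receptor, and all 9 were among the 14308 genes with enough reads to be tested. The mRNAs were measured by RNA-Seq in BMDMs, which are macrophages grown in culture from mouse bone marrow, in 12 libraries. Each of 4 conditions had 3 libraries: PBS alone, 3′SL alone, LPS alone, or LPS with 3′SL (LPS + 3′SL). 3′SL is 3′sialyllactose, a milk sugar of lactose and sialic acid that the labels call HMO, and LPS is a bacterial outer-membrane lipid that activates TLR4. Treatment was with 100 μg/mL of 3′SL and 10 ng/mL of LPS for 6 hours. These conditions come from the methods text, whereas the treatment field of the labels speaks of injected mice. The sources used here give no strain, age, sex, or allele for these libraries. The study's text calls the RNA-Seq samples of its heatmaps independent biological duplicates and gives n = 3 for other RNA-Seq panels. Whether the 3 libraries of a condition came from separate mice or cultures is not stated. The p-values thus measure only the spread between these libraries, part of which may be technical.

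The α subunits αL, αM, and αX, encoded by Itgal, Itgam, and Itgax, each pair with the β2 subunit encoded by Itgb2, and only a paired subunit reaches the cell surface. αLβ2 binds the ICAM family, αMβ2 is also a complement receptor, and αXβ2 is widely used as a marker of dendritic cells and some macrophages. The α4 and α5 subunits of Itga4 and Itga5 pair with β1, encoded by Itgb1, and bind VCAM-1 and fibronectin (α4β1) or fibronectin (α5β1). Icam1 and Vcam1 encode ligands of these integrins that are best known from activated endothelium, and Cd44 encodes the main receptor for hyaluronan. The assay measured mRNA, and neither surface protein nor adhesion was measured in these libraries.

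Between 20411741 and 26851890 reads were counted on genes per library (median 23375851). CPM below stands for counts relative to a library size that was scaled by edgeR's TMM factor (0.700 to 1.30), and values per library are always listed in the order of replicates 1, 2, and 3. With each condition's mean subtracted, the libraries fell into 3 sets of 4, 1 of every condition, with a mean correlation of 0.596 within and −0.346 between sets. Replicate 1 of every condition lies in set 1, replicate 2 in set 2, and replicate 3 in set 3. Replicates are numbered in the order in which the samples are listed, where each set is a run of 4 consecutive samples. The labels name no such grouping, so it is called a library set here, and a fit with the sets as a block is given beside the fit without sets where it changes a call. The 10 macrophage markers together reached 18758 to 30413 CPM in every library, whereas the T-cell markers Cd3e and Cd3g had no reads in any. The 10 stromal markers summed to 811 to 921 CPM in set 1, 37.3 to 62.7 in set 2, and 98.6 to 149.6 in set 3. Neutrophil markers summed to 141 to 1027 CPM, and endothelial markers to 43.1 to 76.7 CPM, with 4 of 8 under 1 CPM in every library. In bulk RNA, more cells of a type and more RNA per cell cannot be told apart.

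The order of the genes at rest was set by length-corrected levels, CPM per kb of exon. With PBS, Itgb2 was highest at 309 ± 52.0 CPM per kb (SD, n = 3), followed by Itgam at 159 ± 19.8, Cd44 at 65.9 ± 15.4, and Itga5 at 33.7 ± 10.5. The libraries of each of these genes lay apart from those of the next. The other 5 genes lay close together, from 13.5 ± 6.34 CPM per kb for Itgal down to 8.87 ± 2.25 for Itga4, and no neighbors among them were separated by their libraries. With LPS, Itgb2 stayed highest at 349 ± 36.9 CPM per kb. Itgam at 239 ± 41.3, Icam1 at 230.4 ± 29.8, and Itga5 at 193 ± 33.1 came next, with overlapping libraries. Icam1 thus moved from the eighth to the third place among the 9 genes, and Itgax, at 21.8 ± 8.29 CPM per kb, came last. With the longest annotated transcript as the length, Icam1 stood first with LPS at 396 CPM per kb, ahead of Itgb2 at 358.

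Comparison of LPS with PBS asked which of the adhesion genes respond to a TLR4 ligand. Icam1, Itgal, Itga5, Itga4, Vcam1, and Cd44 rose, by 22.7-fold for Icam1 down to 2.25-fold for Cd44, and Itgam rose by an amount just above the 1.5-fold minimum. Itgb2, at 1.13-fold, and Itgax, at 1.67-fold, did not pass the test. A gene was called at a Benjamini-Hochberg adjusted p under 0.05 over all genes tested (edgeR's quasi-likelihood test) and a change of at least 1.5-fold, and by this rule 7 of the 9 genes were called higher and 0 lower. Over all genes tested, 18.3% were called higher, 20.2% lower, and 38.5% in either direction. The block fit also called 7 of the 9, against 44.6% of all genes, with Itgax in the place of Itgam. The libraries of both conditions did not overlap for 7 of the 9 genes, against 58.4% of all genes. The median log2 fold change was 1.93 over the 9 genes and −0.061 over all genes. These values depend on the scaling: when libraries were scaled by their total counts alone, the median of all genes moved to −0.71, and 5 of the 9 genes were called, against 57.2% of all genes.

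**Figure D1:**
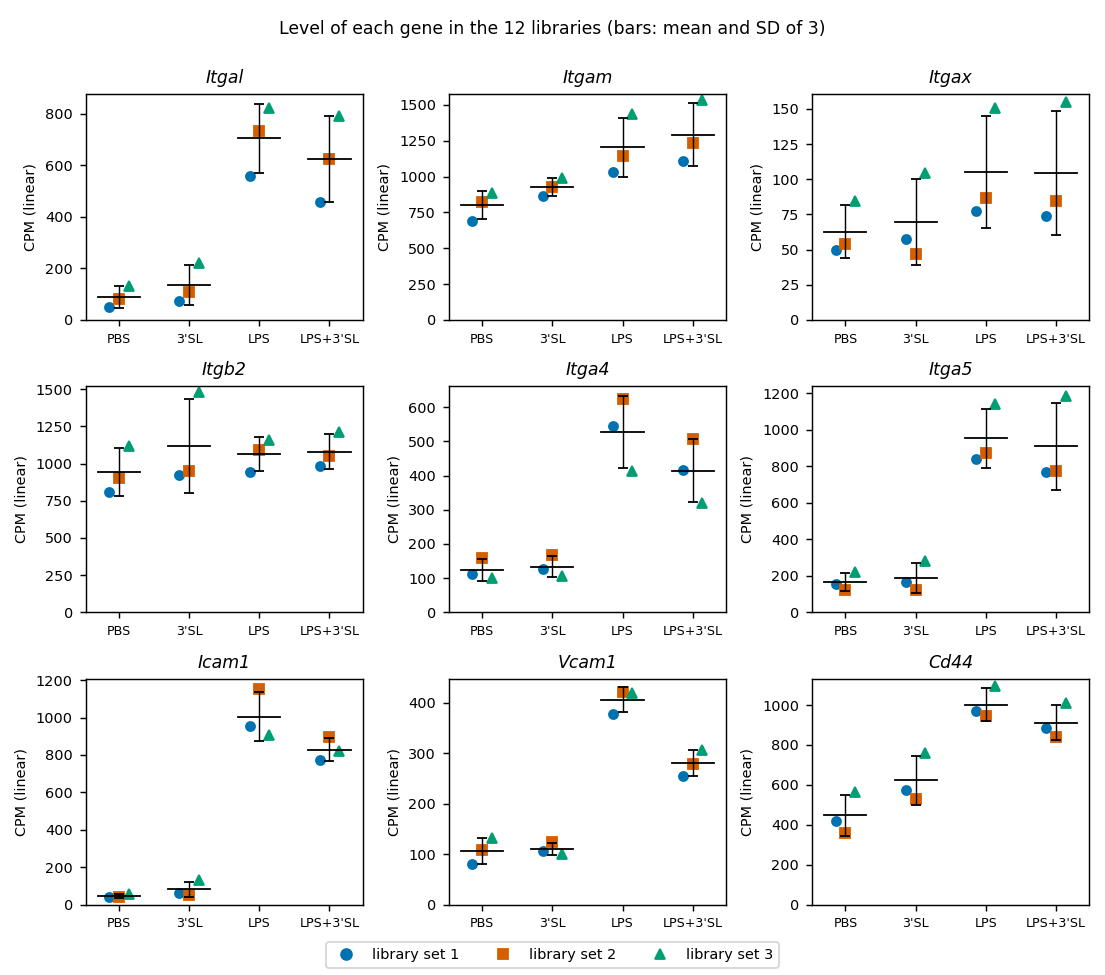
Level of each of the 9 genes (vertical axis, CPM on a linear scale) in the 4 conditions (horizontal axis), 1 point per library, marked by library set, with the mean and SD of 3 libraries. Itgal, Itga4, Itga5, Icam1, and Vcam1 lie far above PBS and 3′SL in both LPS conditions, for example Icam1 at 37.8 to 56.7 CPM with PBS and 908 to 1152 with LPS, whereas Itgb2 overlaps across conditions.

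Among the β2 partners, Itgal (chromosome 7, 127296260 to 127335138, plus strand of GRCm38) changed most. Its level was 50.7, 82.8, and 133 CPM with PBS and 559.6, 733, and 821 CPM with LPS. Every LPS library lay far above every PBS library, and within both conditions set 1 was lowest and set 3 highest. This is a log2 fold change of 2.99 ± 0.45 (SE), with an edgeR adjusted p of 0.000296. Within sets 1, 2, and 3 it was 3.46, 3.15, and 2.62.

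Itgam (chromosome 7, 128062640 to 128118491, plus strand), whose product CD11b is a standard myeloid surface marker, was already abundant at rest, at 690.3, 825, and 885 CPM with PBS, and reached 1032, 1142, and 1434 CPM with LPS. The conditions did not overlap, but the distance from the highest PBS to the lowest LPS library was small. The log2 fold change of 0.59 ± 0.17 (SE) only just passed the 1.5-fold minimum, with an edgeR adjusted p of 0.0149, and the block fit put it at 0.58, under that minimum. With total counts the value was −0.078, so the direction of Itgam depended on the scaling, and the call was also lost without PBS replicate 1 (0.49), 3′SL replicate 3 (0.57), or LPS replicate 3 (0.44), and without any 1 of the 3 library sets. A further limit is that 68.7% of the exon bases of Itgam are shared, on the same strand, with the annotated gene Gm49368, which has no row in the count files.

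Itgax (chromosome 7, 128129547 to 128150657, plus strand) was at 49.8, 54.0, and 84.6 CPM with PBS and 77.4, 86.8, and 150.6 CPM with LPS. The set 3 libraries were highest in both conditions, and the PBS library of set 3 lay between LPS libraries, so the conditions overlapped. Fitted over all libraries, the change was 0.74 ± 0.39 (SE) on the log2 scale and the edgeR adjusted p was 0.143. The block fit gave 0.72 with an adjusted p of 9.22e-05 and called the gene, and the within-set changes were 0.64, 0.68, and 0.83. The summed neutrophil markers were also higher with LPS in each set, at 141, 269.5, and 556 CPM with PBS and 223, 451, and 1027 CPM with LPS. Within this list the means of Retnlg (4.02 and 1.56 CPM), Mpo (1.85 and 1.71), and Elane (0.94 and 0.66) were lower with LPS. In set 3 the sum was 306 CPM with 3′SL, below that with PBS, whereas Itgax was at 104 CPM with 3′SL, above its PBS level. The part of neutrophils in the values of Itgax and Itgal was not tested. The 7 dendritic-cell markers summed to 1.09 to 1.92 CPM with PBS and 6.15 to 15.8 CPM with LPS, without overlap. Of the 7, only Xcr1 (0.28 to 0.88 CPM with PBS and 4.502 to 12.6 CPM with LPS) and Clec9a had no overlap on their own, 4 were under 1 CPM in every library, and the part of these cells in the values of Itgax was not tested. In addition, 8.02% of the words of 50 nucleotides in Itgax transcripts also occur in Itgad, a close relative.

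Itgb2 (chromosome 10, 77530252 to 77565708, plus strand), the subunit shared by all of these α chains, was at 811, 901, and 1119.7 CPM with PBS and 941, 1089.9, and 1161 CPM with LPS. The ranges overlapped between 941 and 1119.7 CPM, and 2 of the 3 PBS libraries lay below all LPS libraries. Its log2 fold change was 0.17 ± 0.20 (SE), with a 95% interval from −0.27 to 0.62 and an edgeR adjusted p of 0.524. With total counts it was −0.48 with an adjusted p of 0.0116, so the direction of Itgb2 also turned with the scaling.

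For the β1 partners, Itga5 (chromosome 15, 103344286 to 103366763, minus strand) rose from 153, 122, and 223 CPM with PBS to 842, 876, and 1141 CPM with LPS. All 3 LPS libraries lay far above all 3 PBS libraries, and set 3 was highest in both conditions. The log2 fold change was 2.52 ± 0.34 (SE) and the edgeR adjusted p was 0.000128. Itga4 (chromosome 2, 79255426 to 79333123, plus strand) rose from 112, 159.7, and 101 CPM to 545, 625, and 414 CPM. It ran opposite to Itga5 over the sets, being lowest in set 3 in all 4 conditions, but rose within every set, by 2.29, 1.97, and 2.04. Its log2 fold change was 2.09 ± 0.25 (SE), with an edgeR adjusted p of 6.76e-05, and 8.04% of its exon bases overlap Cerkl on the opposite strand. Itgb1, the common β partner, was at 798 ± 18.7 CPM (SD, n = 3) with PBS and 999 ± 18.2 CPM with LPS. Its log2 fold change of 0.32 ± 0.098 (SE) had an edgeR adjusted p of 0.0190 but stayed under 1.5-fold, and was −0.33 with total counts.

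Icam1 (chromosome 9, 21015985 to 21028817, plus strand), the ligand of αLβ2 and αMβ2, had the widest change of the 9 genes. Its level was 37.8, 38.1, and 56.7 CPM with PBS and 953, 1152, and 908 CPM with LPS. The conditions were wide apart, and the PBS libraries of sets 1 and 2 were nearly equal. LPS changed it by 4.51 ± 0.35 (SE) on the log2 scale, with an edgeR adjusted p of 3.41e-06. Vcam1 (chromosome 3, 116109949 to 116129688, minus strand), the ligand of α4β1, went from 79.5, 107, and 132 CPM to 377, 421, and 419 CPM. Its log2 fold change was 1.93 ± 0.17 (SE), with an edgeR adjusted p of 8.51e-06. Endothelial marker sums were 43.3 to 76.7 CPM with PBS and 61.8 to 72.5 CPM with LPS, and these ranges overlapped. The sum was mostly Vwf, at 31.1 to 68.5 CPM with PBS and 19.3 to 41.4 with LPS, and 3 of the 8 markers were higher in every LPS library than in every PBS library. They were Flt1 (1.49 ± 0.38 and 13.3 ± 3.96 CPM, SD, n = 3), Cdh5 (2.65 ± 1.88 and 10.5 ± 6.54), and Kdr (4.86 ± 0.54 and 9.66 ± 1.79), and their part in the values of Icam1 and Vcam1 was not tested. Stromal marker sums differed far more between the sets than between conditions, and Vcam1 rose by 2.25, 1.97, and 1.66 on the log2 scale in sets 1, 2, and 3.

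Cd44 (chromosome 2, 102811141 to 102901665, minus strand) was at 418, 359, and 562 CPM with PBS and 969.6, 943, and 1095 CPM with LPS. The LPS libraries lay close together and all above the PBS libraries. The log2 fold change was 1.17 ± 0.19 (SE), with an edgeR adjusted p of 0.000465. With total counts it was 0.51, under the 1.5-fold minimum.

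**Figure D2:**
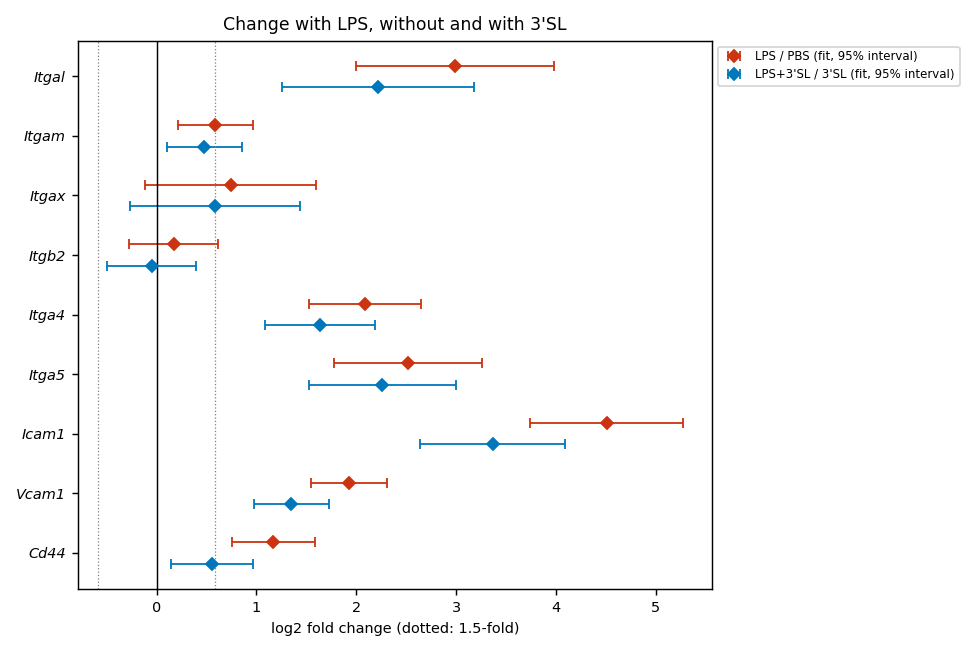
Log2 fold change with LPS of each gene (horizontal axis) against the condition without LPS, in the absence of 3′SL (red) and in its presence (blue), with 95% intervals of the fit over 12 libraries and dotted lines at 1.5-fold. Icam1 is farthest right at 4.51 and 3.37, Itgb2 lies at 0.17 and −0.051, and the intervals of Itgax cross 0 in both.

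The bases before the transcription start were read from the RefSeq promoter table (GRCm38.p6), which held 6 of the 9 genes: Itga4, Cd44, Itgam, Itgax, Icam1, and Itga5. Itgal, Itgb2, and Vcam1 had no entry. The 250 bases before the start are shown for Icam1 and Itga5, the genes of the 6 that rose most with LPS, and for Itgam and Itgax, which changed little or did not pass the test. They run 5′ to 3′ along the gene's strand, and capitals mark matches, on either strand, to any of the 6 motifs searched, which were chosen after the sequences had been seen. The motifs were κB (GGANNTTCC), AP-1 (TGANTCA), PU.1/ETS (GAGGAA), SP1/KLF (GGGCGG), GAS (TTCNNNGAA), and ISRE (GAAANNGAA).
Icam1, chr9:21015690-21015939, plus strand: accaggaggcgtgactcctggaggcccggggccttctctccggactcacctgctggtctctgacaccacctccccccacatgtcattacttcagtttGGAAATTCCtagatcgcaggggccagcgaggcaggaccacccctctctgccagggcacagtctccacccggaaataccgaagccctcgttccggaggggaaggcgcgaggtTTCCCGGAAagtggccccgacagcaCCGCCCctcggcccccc
Itga5, chr15:103366792-103367041, minus strand: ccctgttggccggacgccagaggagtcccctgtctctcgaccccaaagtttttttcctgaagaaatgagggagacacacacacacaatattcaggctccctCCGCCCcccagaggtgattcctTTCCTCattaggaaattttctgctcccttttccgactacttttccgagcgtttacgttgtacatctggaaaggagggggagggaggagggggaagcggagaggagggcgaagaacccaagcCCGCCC
Itgam, chr7:128062390-128062639, plus strand: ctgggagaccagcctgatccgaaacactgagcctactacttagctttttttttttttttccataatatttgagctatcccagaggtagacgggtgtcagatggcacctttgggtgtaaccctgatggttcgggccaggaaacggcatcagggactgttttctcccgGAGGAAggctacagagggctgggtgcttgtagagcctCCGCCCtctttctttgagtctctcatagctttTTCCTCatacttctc
Itgax, chr7:128129300-128129549, plus strand: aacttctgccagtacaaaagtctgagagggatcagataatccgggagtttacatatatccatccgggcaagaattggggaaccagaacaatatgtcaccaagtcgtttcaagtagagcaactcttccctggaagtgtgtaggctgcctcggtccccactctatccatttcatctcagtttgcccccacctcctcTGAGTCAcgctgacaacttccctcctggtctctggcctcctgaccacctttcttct

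The Icam1 sequence was the only 1 of the 6 with a κB match, GGAAATTCC, which begins 153 bases before the start and matches the motif on both strands. None of the matches overlapped another motif. κB matches were found in 3.59% of the 32841 promoters of the table. Icam1 also held a GAS match, TTCCCGGAA, 42 bases before the start, a motif found in 7.02% of promoters. Itgam held PU.1/ETS matches at 84 and 15 bases before the start, and Itga5 held 1 at 127 bases, whereas 23.3% of all promoters had at least 1. In Cd44, PU.1/ETS matches began 243 and 220 bases before the start. An AP-1 match, TGAGTCA, was seen only in Itgax, 56 bases before the start (6.75% of promoters). SP1/KLF matches, present in 32.7% of promoters, occurred in Icam1, Itga4, Itga5, and Itgam, and no ISRE match was present in the 6 sequences. These matches describe the letters only, since no binding was measured in the files used here.

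When 3′SL was present in both arms, Icam1, Itga5, Itgal, Itga4, and Vcam1 were called higher with LPS + 3′SL than with 3′SL alone, 5 of the 9, and 0 were called lower. Over all genes, 14.3% were called higher and 29.2% in either direction. The libraries did not overlap for 7 of the 9 genes, compared with 46.6% of all genes. For Icam1 the levels were 61.1, 51.4, and 129 CPM with 3′SL and 772, 896, and 819 CPM with LPS + 3′SL, and the log2 fold change was 3.37 ± 0.33 (SE), with an edgeR adjusted p of 2.61e-05. Its set 3 library with 3′SL was the highest of the 6 libraries without LPS, and the within-set changes were 3.66, 4.12, and 2.67. Itga5 had a log2 fold change of 2.26 ± 0.33, Itgal of 2.21 ± 0.44, Itga4 of 1.64 ± 0.25, and Vcam1 of 1.35 ± 0.17 (SE), with edgeR adjusted p of 0.000374, 0.00237, 0.000476, and 0.000135.

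Cd44 and Itgam passed the adjusted p but not the fold: 0.55 ± 0.19 (edgeR adjusted p = 0.0392) and 0.48 ± 0.17 (edgeR adjusted p = 0.0471) on the log2 scale. Under total counts the Itgam value was −0.016 and the Cd44 value 0.078. Itgax, at 0.59 ± 0.39 (edgeR adjusted p = 0.274), was called by the block fit alone, with an adjusted p of 0.000561. Itgb2 had a log2 fold change of −0.051 ± 0.20, which was 0.15 without library set 3. In total, the block fit called 6 of the 9 genes, against 35.8% of all genes. Both LPS comparisons share no library, and the difference between them, which equals the interaction of both treatments, was not past the thresholds for any of the 9 genes in the fit without sets.

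Since αL, αM, αX, and αD share the β2 subunit, their shares of the summed CPM per kb were compared. Itgam made up 84.9% ± 3.39 (SD, n = 3) of the 4 with PBS and 64.7% ± 1.72 with LPS, whereas Itgal went from 6.95% ± 2.23 to 28.9% ± 1.87. In single libraries the Itgal share was 4.91%, 6.61%, and 9.33% with PBS and 27.6%, 31.1%, and 28.1% with LPS, without overlap. With 3′SL it was 8.88% ± 3.86 and with LPS + 3′SL 25.0% ± 2.06, and the 3 shares with LPS + 3′SL, 22.7%, 26.4%, and 26.1%, all lay below the 3 with LPS. Itgax kept 6.87% ± 1.12 with PBS and 5.77% ± 1.11 with LPS, and Itgad, the αD subunit, was at or below 1.55% in every library. These shares are ratios within a library and do not depend on its scaling.

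The α mRNAs in sum were 0.610 ± 0.031 times the Itgb2 mRNA per kb with PBS and 0.620 ± 0.085 times with 3′SL. With LPS this ratio was 1.06 ± 0.096 and with LPS + 3′SL 1.06 ± 0.11. Every library with LPS lay above the highest with PBS, 0.645. The ratio of Itgal to Itgam by CPM, without length correction, in libraries 1, 2, and 3 was 0.0735, 0.100, and 0.151 with PBS and 0.542, 0.642, and 0.572 with LPS. For the β1 partners, the Itga4 to Itga5 ratio per kb was 0.293 ± 0.15 with PBS and 0.203 ± 0.066 with LPS, with overlapping libraries. Within each set it was lower with LPS: 0.257, 0.462, and 0.159 with PBS and 0.228, 0.252, and 0.128 with LPS. This difference was not tested.

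**Figure D3:**
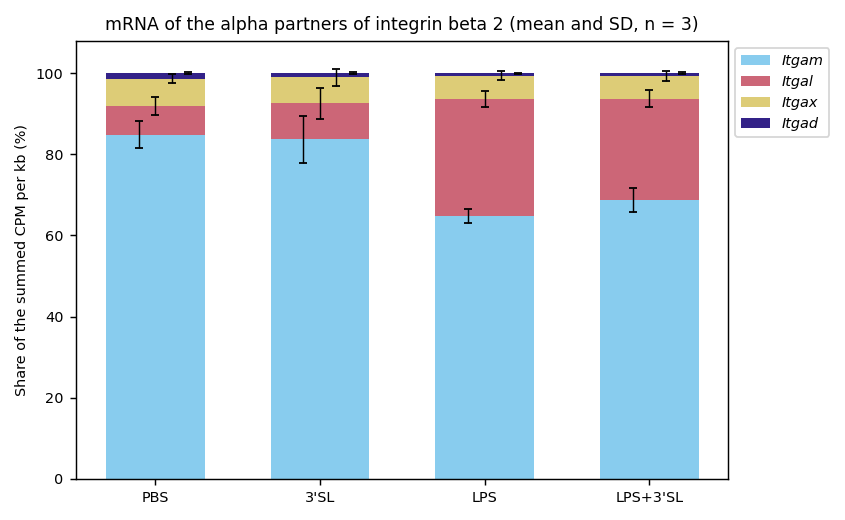
Shares (vertical axis, percent of summed CPM per kb) of the α subunits that pair with integrin β2 in the 4 conditions, as stacked bars of the mean with SD of 3 libraries. The Itgal share is 6.95% with PBS and 28.9% with LPS, and Itgad is a thin band at the top.

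Treatment with 3′SL in the absence of LPS asked whether the sugar alone moves these genes. This comparison shares the PBS libraries with that of LPS. Of the 9 genes, 0 were called, as were 0% of all genes. DESeq2 also called 0 of the 9, against 88 of all 14308 genes. At an unadjusted p under 0.05 there were 2 of the 9, Icam1 and Cd44, both higher with 3′SL, against 1439 of all 14308 genes. Icam1 was at 37.8, 38.1, and 56.7 CPM with PBS and 61.1, 51.4, and 129 CPM with 3′SL. The ranges overlapped only through PBS library 3, and each set moved up, by 0.69, 0.43, and 1.18 on the log2 scale. The log2 fold change of Icam1 was 0.86 ± 0.30 (SE), with an edgeR adjusted p of 0.420. For Cd44 the levels were 418, 359, and 562 CPM with PBS and 576, 531, and 759 CPM with 3′SL. It changed evenly over the sets, by 0.46, 0.56, and 0.43. Its log2 fold change was 0.48 ± 0.19 (SE), with an edgeR adjusted p of 0.453, and the block fit gave 0.48 with an adjusted p of 0.0140, which is still under 1.5-fold. The block fit called 0 of the 9 genes and 2.84% of all genes.

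All 9 genes had a fitted value above 0, with a median of 0.21 on the log2 scale against 0.0013 over all genes tested, but the libraries of 0 of the 9 did not overlap, compared with 17.5% of all genes. Itgal, at 0.60 ± 0.42 (SE), went up in every set (0.55, 0.38, and 0.73). Itgb2 was at 0.25 ± 0.20, Itgam at 0.21 ± 0.17, Itga5 at 0.19 ± 0.32, Itgax at 0.15 ± 0.39, Itga4 at 0.10 ± 0.24, and Vcam1 at 0.049 ± 0.17. Several of these values fell when the 3′SL library of set 3 alone was left out. Without it the value of Itgal was −0.0040, of Itgax −0.31, of Itgb2 −0.046, and of Itga5 −0.24, and that of Icam1 fell to 0.31 and of Cd44 to 0.27. That fit keeps the PBS library of set 3, and most of these genes were highest in set 3. It therefore cannot separate that library from the set difference. Within sets 1 and 2, Itgax changed by 0.20 and −0.20, Itgb2 by 0.19 and 0.079, and Itga5 by 0.12 and 0.0053. The 3′SL library of set 3 had the highest levels of Tnf, Il1b, Cxcl10, Nos2, and Il6 of the 6 libraries without LPS, at 64.1, 17.9, 37.7, 1.75, and 0.44 CPM. These are genes of the LPS response. For Tnf, Il1b, and Cxcl10 the PBS library of set 3 was next, at 47.7, 5.53, and 19.2 CPM. For Nos2 and Il6 it was not next, at 0.51 and 0.13 CPM. What this has to do with the adhesion genes was not tested. Without the whole of set 3, Icam1 was at 0.55 (edgeR adjusted p = 0.0821) and Cd44 at 0.49 (edgeR adjusted p = 0.0653).

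Under LPS stimulation, addition of 3′SL gave 0 of the 9 genes called and 0% of all genes. DESeq2 called 0 of the 9, against 113 of all 14308 genes. The LPS libraries are those that were also set against PBS. Of the 9 genes, 1 had an unadjusted p under 0.05, namely Vcam1, against 995 of all 14308 genes. Vcam1 was at 377, 421, and 419 CPM with LPS and 255, 279, and 307 CPM with LPS + 3′SL. The highest library with 3′SL lay below the lowest without it, and the decrease was alike in sets 1, 2, and 3, at −0.56, −0.59, and −0.45. On the log2 scale the change was −0.53 ± 0.17 (SE), a fold of 0.691, with a 95% interval from −0.90 to −0.16, an unadjusted p of 0.00883, and an edgeR adjusted p of 0.420. The adjusted p was 0.0516 in the block fit and 0.167 with DESeq2, and over all alternatives and left-out libraries the value stayed between −0.60 and −0.45. The change remained under 1.5-fold in the fit without sets, in the block fit (−0.54), and with DESeq2 (−0.54).

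Icam1 was the other gene whose libraries did not overlap, at 953, 1152, and 908 CPM with LPS and 772, 896, and 819 CPM with LPS + 3′SL, so 2 of the 9 genes, compared with 12.7% of all genes, had separate libraries. Its log2 fold change was −0.28 ± 0.30 (SE), with an interval from −0.94 to 0.39 and an edgeR adjusted p of 1. Itga4 was at 545, 625, and 414 CPM with LPS and 416, 506, and 321 CPM with LPS + 3′SL. Lower in each set by nearly the same amount (−0.39, −0.30, and −0.37), it had a log2 fold change of −0.35 ± 0.24 and an edgeR adjusted p of 0.957. The block fit gave −0.36 with an adjusted p of 0.0366, but under the 1.5-fold minimum, and it called 0 of the 9 genes and 1.45% of all genes. Itgal (−0.17 ± 0.42), Cd44 (−0.14 ± 0.19), and Itga5 (−0.067 ± 0.32) had intervals that included 0. Itgam (0.10 ± 0.17), Itgb2 (0.023 ± 0.20), and Itgax (−0.0091 ± 0.39) lay near 0. For Itgam the 95% interval was −0.27 to 0.48, so a change of 1.5-fold upward is outside it, whereas that of Itgax, from −0.86 to 0.84, spans changes of 1.5-fold in both directions.

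**Figure D4:**
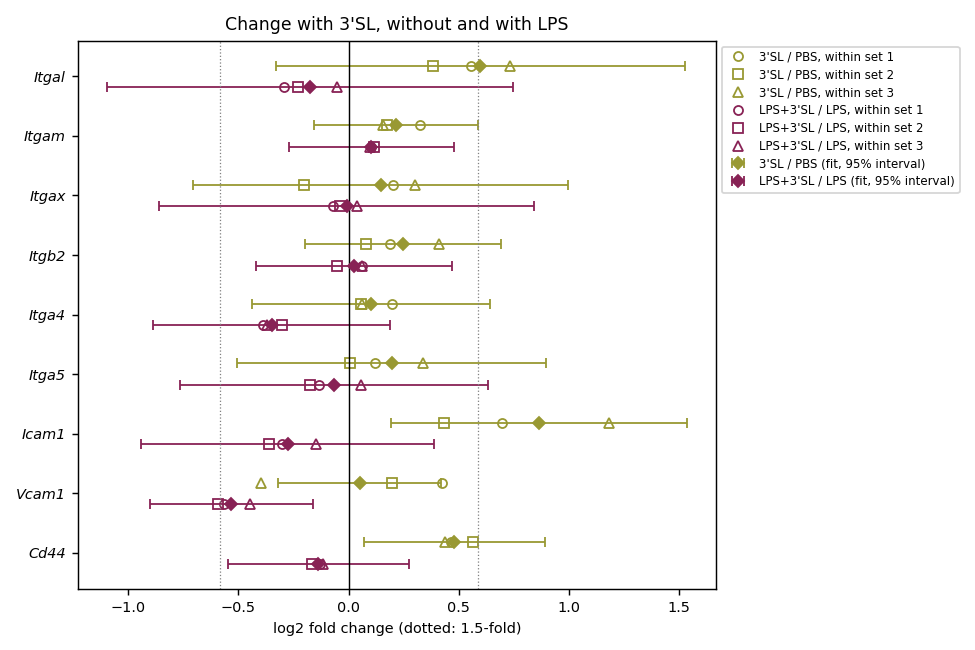
Log2 fold change with 3′SL of each gene (horizontal axis) in the absence (olive) and presence (purple) of LPS, with the fit over 12 libraries and its 95% interval (diamonds) and the change within each library set (open symbols), and dotted lines at 1.5-fold. Vcam1 lies at −0.53 with LPS with its set values close together, and Icam1 at 0.86 without LPS and −0.28 with it.

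The interaction of both treatments, that is the change with 3′SL in the presence of LPS minus that in its absence, was below 0 for all 9 genes, with a median of −0.45 over the 9 and −0.0051 over all genes. Of the 9 genes, 0 were called, as were 0% of all genes. With DESeq2, 0 of the 9 were called, against 44 of all 14308 genes. An unadjusted p under 0.05 was found for 872 of all 14308 genes and for 3 of the 9: Icam1 (−1.14 ± 0.43 on the log2 scale), Cd44 (−0.62 ± 0.26), and Vcam1 (−0.58 ± 0.24). Their edgeR adjusted p were 0.746, 0.811, and 0.773. In the block fit Cd44 was called, at −0.62 ± 0.13 with an adjusted p of 0.0353, as 1 of the 9 genes against 1.55% of all genes. For Icam1 the interaction was −0.59 without the 3′SL library of set 3, a fit that keeps the other libraries of that set, and for Cd44 it was −0.41. The interaction of Vcam1, by contrast, was −0.61 without that library, but its set values were uneven, at −0.99, −0.79, and −0.051.

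The 9 genes also differed in how much they varied between library sets within a condition. The range of the set means on the log2 scale was 1.08 for Itgal and 0.91 for Itgax, followed by 0.76 for Itga5 and 0.65 for Itga4. It was smallest for Vcam1, at 0.27, and Itgam, at 0.37. Set 3 was highest for 8 of the 9 genes and lowest for Itga4. Neutrophil markers were also highest in set 3 in each condition, at 306 to 1027 CPM against 269.5 to 451 in set 2 and 141 to 223 in set 1. The ranges of sets 2 and 3 overlapped, and whether these markers have a part in the set differences was not tested.

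Genes with the most similar pattern over the 12 libraries were found from all genes tested, as the root-mean-square difference of log2 CPM after each gene's mean was subtracted. Itgal was closest to Ikbke, a kinase of the interferon response, with a difference of 0.22. Icam1 was closest to Pstpip2 (0.24), Itga4 to Smpdl3b (0.20), and Vcam1 to Dyrk2 (0.17). Itga5 ran closest to Tent4a (0.12) and to Junb, a subunit of the AP-1 transcription factor (0.14). Cd44 was closest to the pseudogene Rbpj-ps3 and then to Ncf1, a subunit of the phagocyte oxidase (0.12), and Itgax to the cathepsin gene Ctsh (0.11). For Itgam it was Brox (0.080), and for Itgb2 Kif1b (0.086), small differences that go with the small spread of both genes, whose SD over the 12 libraries was 0.32 and 0.22.

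Other adhesion genes were read from 8 lists of 111 genes, of which 109 were found and 93 were tested. With LPS against PBS, 28 of the 93 were called higher and 15 lower, where 18.3% and 20.2% of all genes were, with a median log2 fold change of 0.26 that became −0.39 under total counts. The block fit called 46 of the 93, against 44.6% of all genes, lost none of these calls, and added 3: Fgr, a kinase of the Src family (1.78, adjusted p = 2.29e-07), Thbs1, the matrix protein thrombospondin 1 (1.25, adjusted p = 0.000806), and Hmmr, a hyaluronan receptor (−1.13, adjusted p = 1.20e-05). Of the kinases and cytoskeletal signaling genes downstream of integrins, 10 of 16 were called higher and 2 lower. Src, the founder of its kinase family, was at 4.12 ± 0.996 CPM (SD, n = 3) with PBS and 124 ± 35.6 CPM with LPS. Lyn rose from 254 ± 64.8 to 1044 ± 242 CPM, and Syk, which signals from β2 integrins, from 319 ± 11.1 to 1111 ± 94.8. Of the genes of these lists, all but Selp, Sele, Itgb8, Gcnt1, Itga6, Itga8, Hyal1, Has1, Src, and the partner Itgb1 are named after their values were seen. Among integrin activators, 4 of 22 were called higher and 3 lower: the small GTPase gene Rap1b rose from 449 ± 36.8 to 1357 ± 221 CPM, but Tln1 (0.22 on the log2 scale) and Fermt3 (−0.078), whose products talin and kindlin switch integrins to the active form, did not pass the test.

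Of the other integrin subunits, Itgb8, which pairs with αV, was called with the largest change (7.09 ± 0.63, edgeR adjusted p = 8.17e-06). It had only 10 reads in all PBS libraries, 1 to 7 in each, and 845 with LPS, so the size of this change is uncertain. Itga6, a laminin-binding subunit, fell most, from 340.1 ± 22.7 to 82.7 ± 24.4 CPM (edgeR adjusted p = 0.000126). In all, 2 of 12 α subunits were called higher and 2 lower, and 1 of 5 β subunits higher and 2 lower, namely Itgb3 (−1.38) and Itgb5 (−1.29). Of all genes tested, 18.3% were called higher and 20.2% lower. In the list of selectins and their ligands, 4 of 9 were called higher and 3 lower. Gcnt1, an enzyme that builds the branched glycans of selectin ligands, fell from 150.4 ± 47.0 to 13.4 ± 1.65 CPM (edgeR adjusted p = 1.77e-06). Sele and Selp, the selectins of endothelium and platelets, had 0 reads in all PBS libraries and 52 and 111 reads in all with LPS, and so were at least 28.1-fold and 59.9-fold higher, taking 3 reads over the group as the floor. The bound for Selp rested on LPS replicate 3, which held 86 of its 111 reads, and was 18.8-fold without it. Without PBS replicate 1, which lowers the depth behind the floor, the bounds were 17.6-fold for Sele and 37.5-fold for Selp.

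For the ligands and partners of CD44, 5 of 14 genes were called higher and 2 lower, where 18.3% and 20.2% of all genes were. Cemip2, a hyaluronan-degrading surface protein, rose from 28.8 ± 3.99 to 413 ± 137 CPM, Msn, which links CD44 to actin, rose from 1109 ± 141 to 2351 ± 379 CPM, and Hyal1, a lysosomal hyaluronidase, fell from 21.1 ± 4.56 to 5.38 ± 0.93 CPM (edgeR adjusted p = 3.84e-05). Of the other immunoglobulin-type molecules, 2 of 9 were called higher, F11r and Jam2. Of the matrix ligands, 0 of 6 were called higher and 1, Emilin1, was lower. Fn1, which encodes the fibronectin bound by α4β1 and α5β1, ranged from 127 to 428 CPM with PBS and 128 to 511 with LPS.

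**Figure D5:**
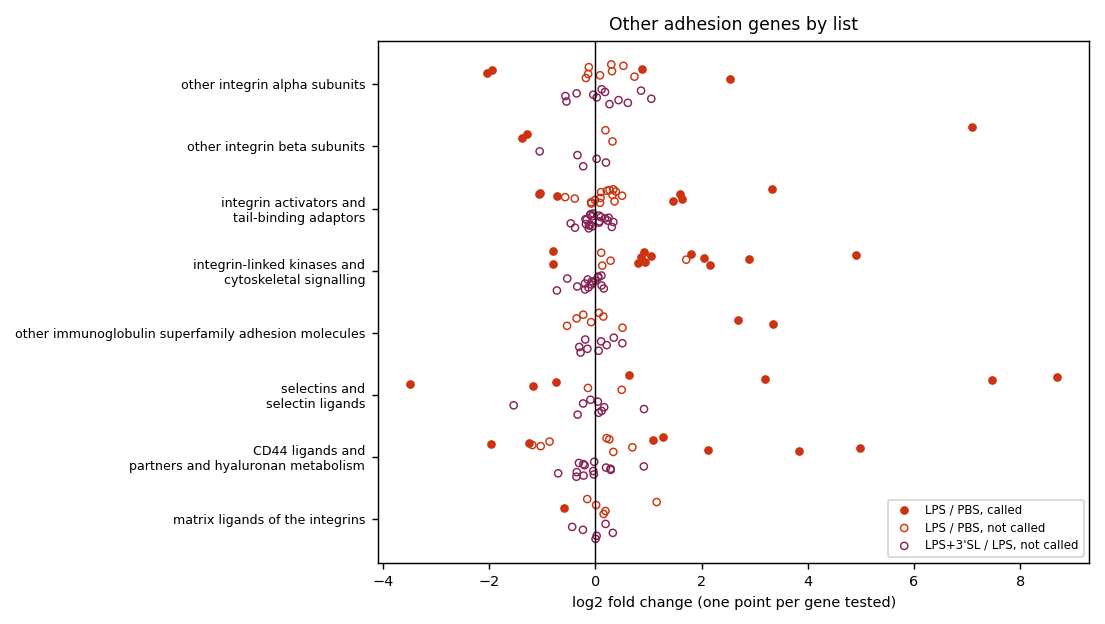
Log2 fold change (horizontal axis) of the 93 tested genes of the 8 other adhesion lists, 1 point per gene, for LPS against PBS (red) and LPS + 3′SL against LPS (purple), filled where called. Called genes lie on both sides of 0 with LPS, 28 higher and 15 lower, none of the purple points is filled, and the far-right points of Sele and Selp are fitted values of genes without reads in PBS.

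With 3′SL present, 24 of the 93 genes were called higher with LPS and 12 lower, where 14.3% and 14.8% of all genes were. The block fit called 41 of the 93, against 35.8% of all genes, and added Ezr (1.40, adjusted p = 0.000120), which like Msn links CD44 to actin, the proteoglycan gene Srgn (0.98, adjusted p = 1.32e-06), Fgr (1.45), Hmmr (−1.24), and Thbs1 (−0.71, adjusted p = 0.0258). Src again rose (4.36 ± 0.40, edgeR adjusted p = 1.70e-05), Gcnt1 (−2.49 ± 0.23), Itga8 (−2.23 ± 0.57), and Itga6 (−1.82 ± 0.27) fell, and Has1, a hyaluronan synthase with 3 reads in all 3′SL libraries and 55 with LPS + 3′SL, had a ratio of 23.2 with a 95% exact counting interval from 7.53 to 116. Of the 55 reads 41 came from LPS + 3′SL replicate 3, and without that library the ratio was 8.501 with an interval from 2.37 to 46.1, whereas without 3′SL replicate 2 it was 46.9. Sele, with 0 and 19 reads, was at least 8.01-fold higher against the same floor, or 5.22-fold without 3′SL replicate 1. The counting intervals and floors cover counting error only. The comparisons with 3′SL called 0 of the 93 genes in either setting, with 8 genes at an unadjusted p under 0.05 in each. Over all 14308 genes tested, 1439 had such a p without LPS and 995 with LPS. For 3′SL against PBS the block fit called 2 of the 93, against 2.84% of all genes. They were Icam2 (−0.98, adjusted p = 0.0241), a further ligand of αLβ2, and Thbs1 (1.47, adjusted p = 0.00997). Icam2 was low, with 94 to 143 reads per library with PBS and 31 to 77 with 3′SL. With LPS, 1 of the 93 was called by DESeq2, against 113 of all 14308 genes. The block fit also called a single gene of the 93, against 1.45% of all genes. This was Gcnt1, at 13.4 ± 1.65 CPM with LPS and 25.4 ± 4.99 CPM with LPS + 3′SL (0.90, adjusted p = 0.0261 in the block fit). Syk was at 1111 ± 94.8 CPM with LPS and 771 ± 93.0 CPM with LPS + 3′SL, without overlap of libraries, and had an edgeR adjusted p of 0.236, with a block fit value of −0.53 that was under 1.5-fold. For the interaction the block fit called 2 of the 93, against 1.55% of all genes. These were Syk (−0.62, adjusted p = 0.0284) and Thbs1 (−1.96, adjusted p = 0.0179).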

How the data were processed

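The 12 BMDM libraries were grouped by the condition in their labels, which carry no replicate number. The authors deposited raw counts per gene, as whole numbers with no normalization. The submitters' processing notes name FastQC, Trimmomatic, STAR, HTSeq, and DESeq2. Their versions, the genome build, and the strand setting are not given in the sources used here, so reads of overlapping opposite-strand genes may not be separated. Between 33.2% and 37.1% of reads or alignments per library lay in the closing rows that name no gene (not unique, ambiguous, not aligned), which were left out. Of 43626 gene identifiers, 42548 matched GENCODE M21 (GRCm38), which supplied names, positions, and exon lengths.

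The main test was edgeR 4.0.16 (R 4.3.3): filterByExpr, TMM factors, a quasi-likelihood fit of the 4 condition means to all 12 libraries, and Benjamini-Hochberg adjustment over the 14308 genes tested. Calls needed both an adjusted p under 0.05 and a change of 1.5-fold or more. Standard errors and 95% intervals come from the same fit. Tests were first tried on simulated data. The 9 genes, the other lists, and the library sets were chosen with earlier results of these data known. Named genes are all 9, from the lists the 3 largest called changes per direction and comparison, partners of the 9, and for each of the 9 the 3 most similar patterns, not all of which are printed. Genes and motifs outside this rule are identified in the text as chosen after their values were seen.

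The alternatives were median-of-ratios size factors, total counts, DESeq2 1.42.0, 2 other filters, a fit of only the conditions compared, the library sets as a block, leaving out each library, and the longest transcript as length. Leaving out each library set, and the block with total counts, were added after the data were seen. Motifs were searched in RefSeq promoters. The marker lists that are not printed in the report were low: the 8 T- and NK-cell markers summed to 9.61 to 19.2 CPM, 5 B-cell markers to 0.73 to 2.75, and 5 mast-cell markers to 0.23 to 1.61.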

Additional observations from a re-analysis of the deposited data

Results flagged for a closer look

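For 4 of the 9 genes, the change with 3′SL was upward in all 3 library sets without LPS and downward in all 3 with LPS. The share of all genes with this pattern was not counted, so 4 of 9 cannot be called unusual. The difference between both changes (the interaction, on the log2 scale) was −0.77 for Itgal, −0.45 for Itga4, −1.14 for Icam1, and −0.62 for Cd44. The test of this difference did not pass the threshold for any of the 4: the edgeR adjusted p was 0.887 for Itgal and Itga4, 0.746 for Icam1, and 0.811 for Cd44. With the library sets as a block, Cd44 passed at 0.0353, and Itga4, at 0.0627, Icam1, at 0.125, and Itgal, at 0.125, did not. Within sets 1, 2, and 3, Icam1 changed by 0.69, 0.43, and 1.18 without LPS and by −0.30, −0.36, and −0.15 with it, and Cd44 by 0.46, 0.56, and 0.43 and by −0.13, −0.17, and −0.12. Within the same sets Itga4 changed by 0.20, 0.057, and 0.061 without LPS, smaller values than with it (−0.39, −0.30, and −0.37). Pairing the libraries in this way rests on the sets found in the counts, which match the order of the samples, and on no label. Without the 3′SL library of set 3, and with the other libraries of that set kept, the difference was −0.17 for Itgal, −0.56 for Itga4, −0.59 for Icam1, and −0.41 for Cd44.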

How the results depend on the processing

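Of 1026 values of the 9 genes under the alternatives, 957 kept their direction and their side of the thresholds, 13 lost a call, 7 gained 1, and 49 changed sign. Only 2 of the 49 concern a called value, that of Itgam for LPS against PBS, at −0.078 with total counts and −0.076 with the block and total counts. The cause was not tested, apart from the shift of all genes that total counts make. Other sign changes with these 2 settings, in the same order, were Itgb2 for LPS against PBS (−0.48 and −0.47), Itgam for LPS + 3′SL against 3′SL (−0.016 and −0.017), Vcam1 for 3′SL against PBS (−0.022 and −0.027), Itgax for LPS + 3′SL against LPS (0.068 and 0.064), and, for the interaction, Itgam (0.062 and 0.059) and Itgax (0.029 and 0.043). Itga5 for LPS + 3′SL against LPS was 0.0090 with total counts. Itgax for that comparison was 0.0061 with all genes of at least 1 count, 0.0045 with only the conditions compared, 0.011 without set 1, and 0.0030 without set 2. Vcam1 for 3′SL against PBS was −0.10 without set 1 and −0.034 without set 2, Itgax −0.013 without set 3, and Itgb2 for LPS + 3′SL against 3′SL 0.15 without set 3.

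Leaving out single libraries gave both signs for values near 0. For 3′SL against PBS the ranges were −0.0040 to 1.01 (Itgal), −0.31 to 0.42 (Itgax), −0.046 to 0.39 (Itgb2), −0.092 to 0.33 (Itga4), −0.24 to 0.47 (Itga5), and −0.12 to 0.24 (Vcam1). For LPS + 3′SL against LPS they were −0.38 to 0.0083 (Itgal), −0.036 to 0.25 (Itgam), −0.41 to 0.35 (Itgax), −0.065 to 0.092 (Itgb2), and −0.30 to 0.085 (Itga5). For the interaction they were −0.25 to 0.037 (Itgam), −0.55 to 0.30 (Itgax), −0.36 to 0.070 (Itgb2), and −0.53 to 0.17 (Itga5), and for LPS + 3′SL against 3′SL −0.17 to 0.22 (Itgb2).

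Counts of calls moved as follows. For LPS against PBS, the block with total counts called 9095 genes and leaving out set 2 3516, against 5502. For LPS + 3′SL against 3′SL these were 7421 and 2183, against 4171, and 18 list genes without set 2, against 36. For 3′SL against PBS, against 0, DESeq2 called 88 genes, the block 406, the block with total counts 365, and the fit without set 3 87, and both block fits called 2 list genes. For LPS + 3′SL against LPS, against 0, median-of-ratios factors and total counts called 1 gene each, DESeq2 113, all genes of at least 1 count 2, the block 207, the block with total counts 218, the fit without set 3 149, and single left-out libraries 0 to 8, while DESeq2 and both block fits called 1 list gene each. For the interaction, against 0, the block called 1 of the 9 genes, 2 list genes, and 222 genes, the block with total counts 1 list gene and 136 genes, DESeq2 1 list gene and 44 genes, and the fit without set 3 44 genes. With the longest transcript as length, 13 of 36 ranks of the 9 genes per kb moved. Dropping libraries lowers the degrees of freedom, and the counts say nothing of which genes were called. Since the labels carry no replicate numbers, the block fitted was that of the library sets found in the counts, which match the order of the samples.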
